A study of Mus musculus with 4 samples.

Results

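The paired forkhead genes Foxf2 and Foxc1 on mouse chromosome 13, and Foxf1 and Foxc2 on chromosome 8, were examined for binding of Pitx1 in embryonic hindlimb buds. Their regulatory surroundings were taken as 2 windows of the mm9 genome, chr13:31400000-32600000 (1.2 Mb, which also holds Gmds) and chr8:122900000-124200000 (1.3 Mb). Members were the Pitx1 ChIP-seq peaks with a midpoint in either window, 49 of 14753 peaks in replicate 1 and 87 of 25027 peaks in replicate 2. Peaks that overlapped between the replicates by at least 1 bp were joined into replicated regions, of which 41 of 10274 lay in the windows. The windows were chosen by the positions of peaks in these same lists, with earlier results known, so their peak counts and scores describe them and were not tested.

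The chromatin came from whole hindlimb buds of wild-type ICR embryos at embryonic day E11.5. Chromatin immunoprecipitation with an antibody to Pitx1, followed by sequencing, gave 2 libraries. For the 2 input libraries, made from chromatin without antibody, no peak list was used here. Each antibody library drew on material of several separate immunoprecipitations, and the labels do not say whether replicates came from separate litters. A whole bud mixes cell types, so a peak does not say in which cells Pitx1 was bound.

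Pitx1, a transcription factor with a homeodomain, is produced in hindlimb but not forelimb buds and helps to give the hindlimb its identity. Foxc1 and Foxc2 are closely related forkhead transcription factors of embryonic mesoderm, known for roles in somites, the skeleton, blood and lymphatic vessels, kidney and eye. Foxf1 and Foxf2 form another related pair, known from mesenchyme of lateral plate origin, where they respond to Hedgehog signals. Gmds encodes an enzyme that makes the fucose donor GDP-fucose. In the GRCm38 annotation, the order of protein-coding genes was Foxq1, Foxf2, Foxc1 and Gmds on chromosome 13, and Foxf1, Mthfsd, Foxc2 and Foxl1 on chromosome 8. A Foxf gene is thus followed by a Foxc gene in both places, with a further forkhead gene beside each pair.

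No annotation of the mm9 build was at hand, so peaks were not assigned to exons, introns or promoters. Distances below run from the position given with the windows, about 31.9 Mb for Foxf2 and Foxc1 and about 123.6 Mb for Foxf1 and Foxc2. These positions are rounded, so distances may be off by 50 kb. In GRCm38, Foxf2 and Foxc1 are farther apart than that rounding covers, so 1 position cannot stand for both of them. Foxf1 and Foxc2 are closer together than that. Distances above the position are toward higher coordinates, and distances below it toward lower ones.

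Both windows were dense in replicated Pitx1 regions. The Foxf2-Foxc1 window held 22, or 18.3 per Mb (95% exact Poisson interval 11.49 to 27.8), and the Foxf1-Foxc2 window held 19, or 14.6 per Mb (8.80 to 22.8). The rest of the autosomes held 4.10 per Mb (4.02 to 4.18). The ratio to the rest of the autosomes was 4.47 for the Foxf2-Foxc1 window (exact interval 2.80 to 6.78) and 3.57 for the Foxf1-Foxc2 window (2.15 to 5.57). Intervals here and below reflect counting error alone, and clustering of peaks makes them too narrow. When each window was set against the rest of its own chromosome, the ratios were 3.98 and 3.43 in the same order. Among autosomal stretches of 1200 kb, 0.905% held at least 22 replicated regions, with a median of 4 (quartiles 2 and 7) and a maximum of 38. Among stretches of 1300 kb, 2.51% held at least 19, with a median of 4 (quartiles 2 and 8) and a maximum of 36. Each window is thus in the upper tail without being the extreme of the genome. Restricted to the best 50% of each list by score, the Foxf1-Foxc2 window kept 7 regions at a ratio of 2.45 (0.986 to 5.06), and in the best 25% it kept 3 at a ratio of 2.04 (0.421 to 5.97). Both of these intervals include 1.

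**Figure D1:**
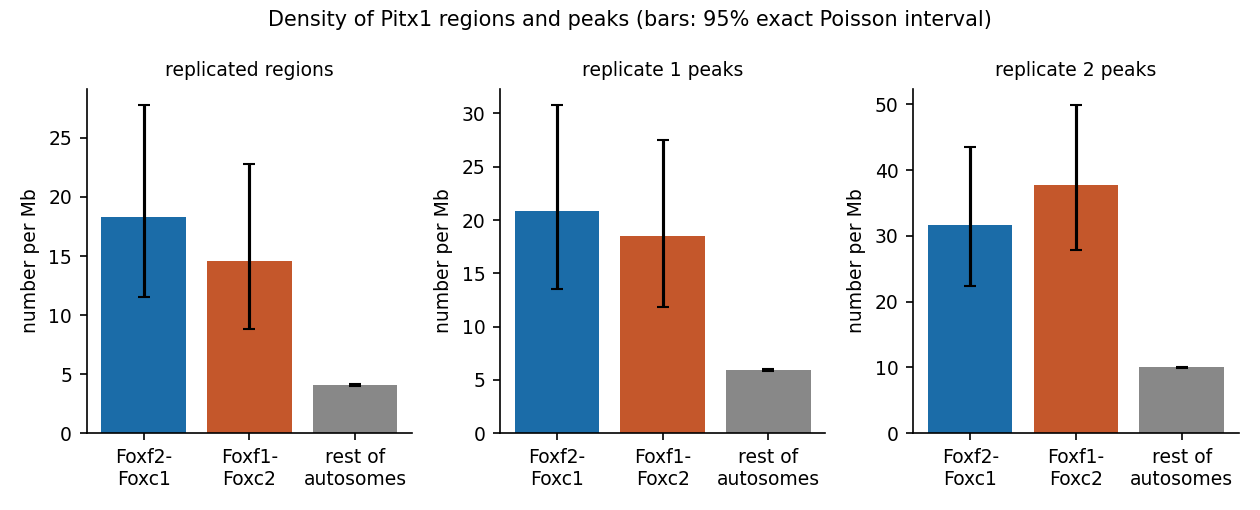
Number per Mb of replicated regions, replicate 1 peaks and replicate 2 peaks (3 panels) in the Foxf2-Foxc1 window, the Foxf1-Foxc2 window and the rest of the autosomes, with 95% exact Poisson intervals. Both windows stand above the rest of the autosomes in each panel, and their intervals overlap each other.

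**Figure D2:**
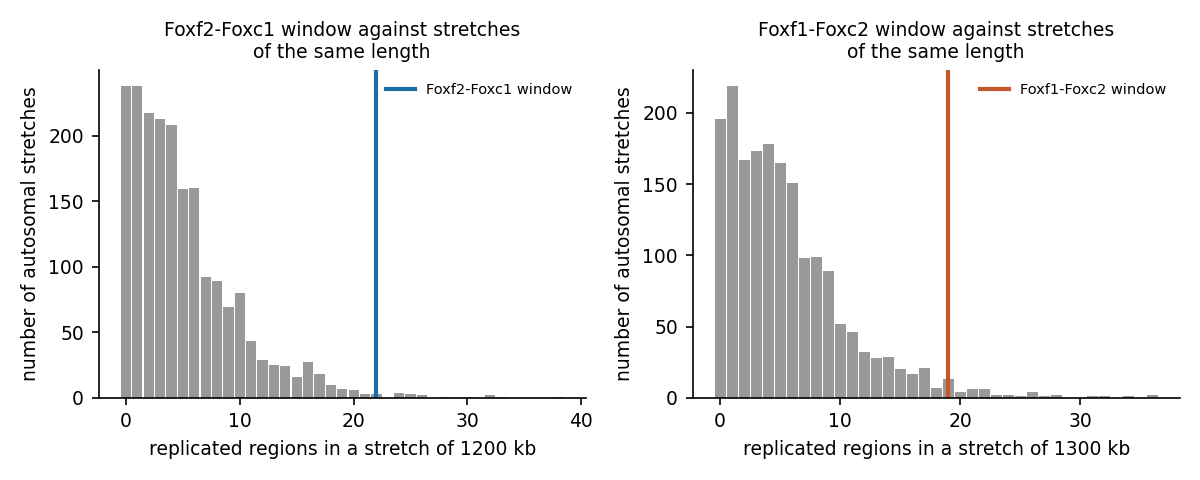
Grey bars count autosomal stretches of 1200 kb (left) and 1300 kb (right) by the number of replicated regions they hold, and the coloured line marks the window of the same length. The lines at 22 and 19 regions lie far to the right of the median of 4.

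The paralogous windows could not be told apart by density. The Foxf2-Foxc1 window had 1.25 times the replicated regions per Mb of the Foxf1-Foxc2 window, with an exact interval of 0.648 to 2.45 that includes 1. By replicate 1 peaks alone the ratio was 1.13 (0.618 to 2.06), from 25 peaks against 24. By replicate 2 peaks alone it was 0.840 (0.535 to 1.31), from 38 peaks against 49, so the direction turned. In the best 25% of each list the ratio was 2.53 (0.577 to 15.1), from 7 regions against 3.

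Within the windows, Pitx1 regions were unevenly placed. In the Foxf2-Foxc1 window, 19 of 22 lay above the gene position, on the side of Gmds in the GRCm38 gene order, at 27.1 per Mb (16.3 to 42.4). The 500 kb below it held the other 3, at 6 per Mb (1.24 to 17.5). In the Foxf1-Foxc2 window, 11 regions lay above the gene position (18.3 per Mb, 9.15 to 32.8) and 8 below (11.4 per Mb, 4.93 to 22.5), where these intervals overlap. By 100 kb steps, the fullest step was 200 to 300 kb above the gene position in both windows, with 7 regions beside Foxf2 and Foxc1 and 6 beside Foxf1 and Foxc2. In the Foxf1-Foxc2 window, the step 600 to 500 kb below the position was nearly as full, with 5 regions. The positions are rounded, and 1 position cannot stand for both Foxf2 and Foxc1. The match is therefore in distance from the positions as given, not from the genes themselves. The Foxf2-Foxc1 window had 4 of 12 steps without a replicated region and the Foxf1-Foxc2 window 6 of 13.

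**Figure D3:**
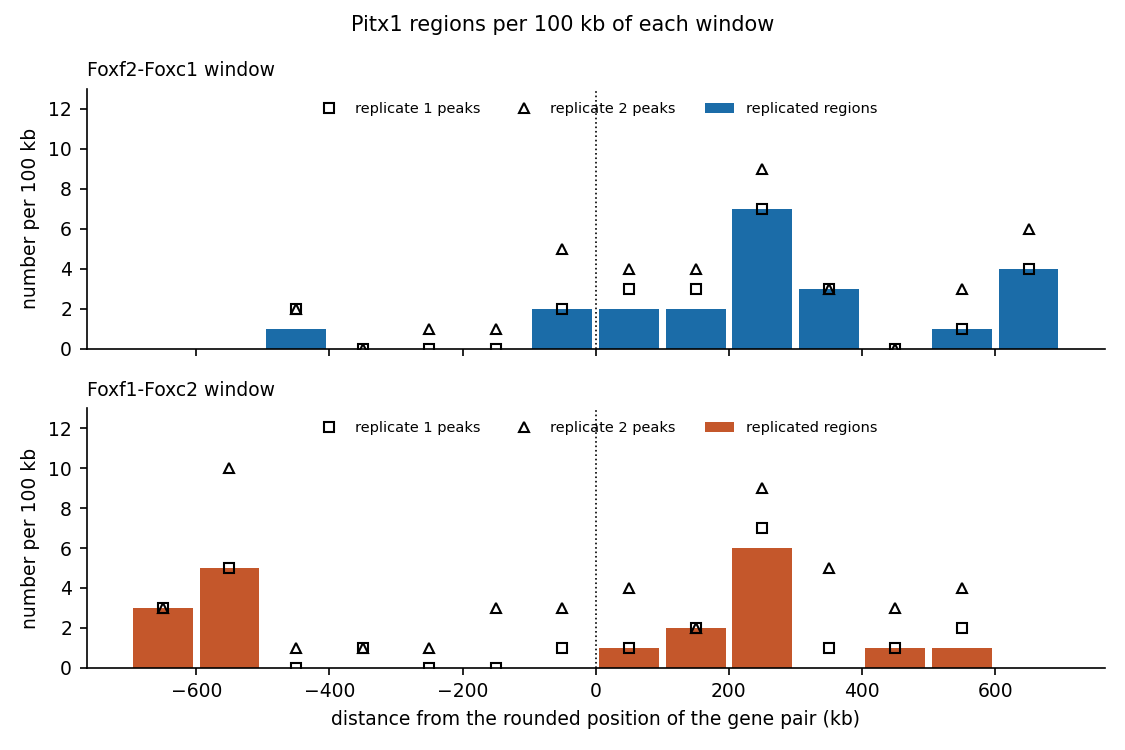
Replicated regions (bars), replicate 1 peaks (squares) and replicate 2 peaks (triangles) per 100 kb along each window, by distance in kb from the rounded position of the gene pair (dotted line). The fullest bar lies 200 to 300 kb above the dotted line in both windows (7 and 6 regions), and the Foxf1-Foxc2 window has no bar from 500 kb below up to the line.

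Around the Foxf2-Foxc1 position replicated regions were about as dense as in the window as a whole, and around the Foxf1-Foxc2 position they were sparser. Within 50 kb there were 2 around the Foxf2-Foxc1 position and 1 around the Foxf1-Foxc2 position. Within 100 kb there were 4 and 1. Because the positions are rounded, it cannot be told which region is nearest to Foxf2 or Foxc1. The closest to the Foxf2-Foxc1 position as given was 45.7 kb above it, at chr13:31945158-31946254, with a score of 350 in replicate 1 and 556 in replicate 2. It ranked high in both lists, in the best 3.81% of replicate 1 and the best 2.78% of replicate 2. Almost as close, 47.7 kb below, was chr13:31851927-31852709, which scored 59.1 and 182 and was weak in replicate 1 (rank percentile 79.9, where 0 is strongest). The nearest one to the Foxf1-Foxc2 position was 40.0 kb above it, at chr8:123639621-123640389, with scores of 60.1 and 106. That region was weak in replicate 1 (rank percentile 78.0) and of middle rank in replicate 2 (39.3). Closer still were peaks of 1 replicate alone, picked out after their values were seen. Around the Foxf2-Foxc1 position, the strongest was a replicate 2 peak 12.9 kb above it, chr13:31912497-31913212, with a score of 159. The closest, chr13:31898328-31898693, also of replicate 2, scored 57.6. Others of replicate 2 scored 73.25 and 85.95, and a replicate 1 peak at chr13:31941212-31942002 scored 86.9. Around the Foxf1-Foxc2 position, a replicate 2 peak at chr8:123607050-123607494 scored 89.7. None of these overlapped a peak of the other replicate.

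The strongest regions of the Foxf2-Foxc1 window were spread over its upper side. Strength was taken from the sum of a region's ranks in both lists, since scores of separately called lists are not on a shared scale. Rank numbers were summed, so replicate 2, with the longer list, can weigh more in this order. First came the region at chr13:32062257-32063736, 163 kb above the gene position, which scored 475 in replicate 1 and 689 in replicate 2 and was place 240 of all replicated regions. It was followed by chr13:31945158-31946254, described above, at place 471. A short region of 589 bp, chr13:32293163-32293751, 393 kb above, scored 209 and 477 (place 972). Next was chr13:32125722-32126658, 226 kb above, with scores of 199 and 395 (place 1205). The fifth, chr13:32541568-32542612, lay 642 kb above and scored 281 and 268 (place 1371). Over these 5, the rank percentile was 1.65 to 11.9 in replicate 1 and 1.75 to 10.7 in replicate 2.

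In the Foxf1-Foxc2 window the 5 regions with the lowest sum of ranks lay in 2 places far apart, and not all of them were strong. The widest region, chr8:123824071-123826566, spanned 2496 bp at 225 kb above the gene position. It scored 374 in replicate 1, and in replicate 2 it was called as 2 peaks, the stronger of which scored 1023. It was place 224 of all replicated regions. The region at chr8:123883020-123883839, 283 kb above, scored 298 and 1211 (place 338). Its replicate 2 score was rank 91 of the 25027 replicate 2 peaks and the highest score of either list in these windows. The remaining ones were at the other end, more than 500 kb below the gene position. Of these, chr8:122950624-122951282 scored 292 and 532 (place 604), and chr8:122963105-122963699 scored 163 and 136 (place 3782). The last, chr8:123028796-123029911 (place 4144), was strong only in replicate 2. It had a score of 67.2 in replicate 1 (rank percentile 66.3) and 549 in replicate 2 (rank percentile 2.85). Places 3782 and 4144 are of middle rank among the 10274 replicated regions.

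**Figure D4:**
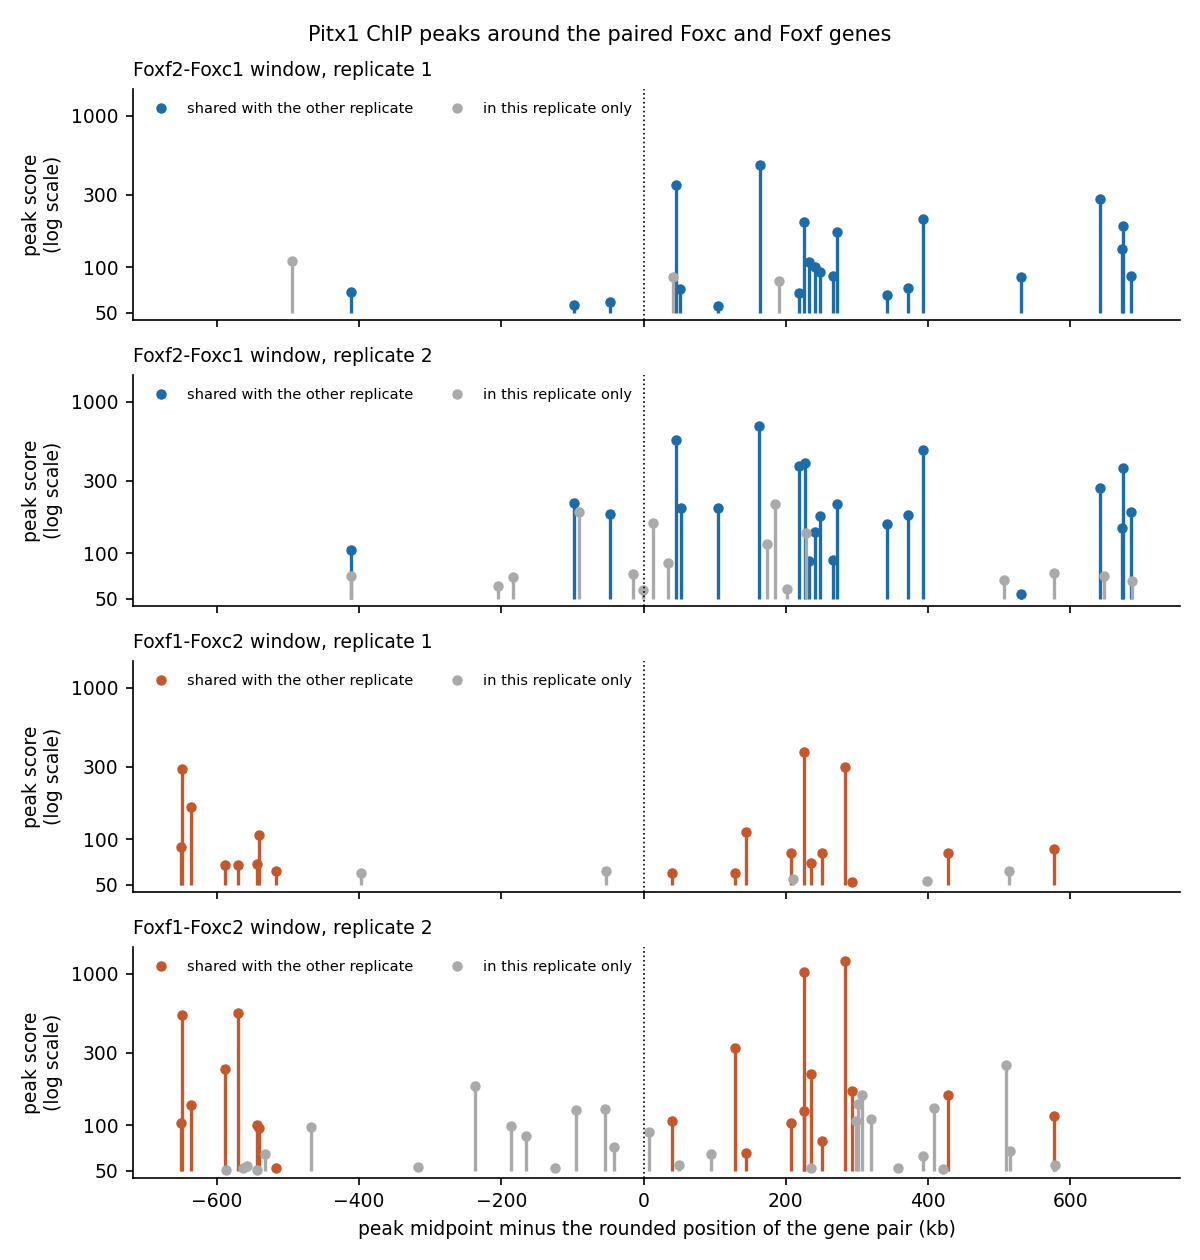
Every Pitx1 peak of each replicate in each window (4 panels), placed by its distance in kb from the rounded position of the gene pair (dotted line), with its score on a log axis. Coloured peaks are shared between replicates and grey ones are in 1 replicate only; the highest peaks lie above the Foxf2-Foxc1 position, and on both sides of the stretch without shared peaks in the Foxf1-Foxc2 window.

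The Foxf1-Foxc2 window was marked by a long gap. No replicated region lay between chr8:123083989 and chr8:123639620, a stretch of 556 kb that reaches from 516 kb below the gene position to 39.6 kb above it. Replicate 1 had 2 peaks in this stretch and replicate 2 had 10, none overlapping. By midpoints the gap measured 556 kb, and 10.9% of the 10126 gaps between neighbouring autosomal regions were at least as long. The longest gap of the Foxf2-Foxc1 window was 313 kb, from chr13:31489666 to chr13:31802372, all of it below the gene position, and 21.2% of autosomal gaps were as long or longer. It held 0 peaks of replicate 1 and 2 of replicate 2. Thus gaps of such length are not rare over the autosomes as a whole, which are less dense than these windows. No comparison with stretches as dense as the windows was made. The longest stretch with no peak of either list was 206 kb beside Foxf2 and Foxc1 (chr13:31489666-31695747) and 80.4 kb beside Foxf1 and Foxc2 (chr8:124028798-124109235).

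Where regions did occur, they stood close together. Neighbouring midpoints were a median of 29.6 kb apart in the Foxf2-Foxc1 window and 21.5 kb in the Foxf1-Foxc2 window, against 88.7 kb over the autosomes. Of the gaps, 7 of 21 and 4 of 18 were under 10 kb, against 12.7% over the autosomes. A denser window has shorter gaps, so these values are not separate from the density given above. Closeness beyond that density was not tested. In the Foxf2-Foxc1 window, 5 regions formed a run with midpoints under 10 kb apart, over 30.0 kb at chr13:32117821-32147811, 218 to 248 kb above the gene position. Over the autosomes, 5.99% of replicated regions lay in runs of 3 or more. The Foxf1-Foxc2 window had no such run, and its tightest grouping was pairs, of which the first is chr8:122948985-122951282 (2.30 kb). The fullest 200 kb held 10 regions beside Foxf2 and Foxc1 (chr13:32117821-32293751) and 8 beside Foxf1 and Foxc2. In the Foxf1-Foxc2 window 2 stretches tied at 8, chr8:122948985-123083988 at its lower end and chr8:123727580-123893248, 128 to 293 kb above the gene position, which contains its 2 strongest regions. Of the 200 kb windows started at each autosomal region, 1.3% held at least 10 and 3.57% held at least 8.

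Most replicate 1 peaks of both windows recurred in replicate 2. In the Foxf2-Foxc1 window 22 of 25 were shared (88.0%, 95% Wilson interval 70.0 to 95.8%), and in the Foxf1-Foxc2 window 19 of 24 (79.2%, 59.5 to 90.8%), beside 69.9% of autosomal replicate 1 peaks. Of replicate 2 peaks, 22 of 38 were shared in the Foxf2-Foxc1 window (57.9%, 42.2 to 72.1%) and 20 of 49 in the Foxf1-Foxc2 window (40.8%, 28.2 to 54.8%), beside 42.6% over the autosomes. The Foxf1-Foxc2 share is close to the autosomal one, and all peaks of each list, shared or not, were denser there than in the rest of the autosomes, at 18.5 against 5.89 per Mb in replicate 1 and 37.7 against 9.99 per Mb in replicate 2.

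Unshared peaks of replicate 2 were also dense, most of all beside Foxf1 and Foxc2. The Foxf2-Foxc1 window had 16 (13.3 per Mb, 7.62 to 21.7) and the Foxf1-Foxc2 window 29 (22.3 per Mb, 14.9 to 32.0), against 5.74 per Mb in the rest of the autosomes. The ratio between the windows was 0.598, with an interval of 0.303 to 1.14 that includes 1. Their median scores were 72.0 and 67.2 in the same order, against 71.6 for unshared replicate 2 peaks in the rest of the autosomes. The strongest of them were chr13:32084316-32085702, with a score of 210, and chr8:124109236-124109654, with a score of 250. Their nearest replicate 1 peaks were 4.76 and 4.13 kb away. Replicate 1 had 3 unshared peaks in the Foxf2-Foxc1 window (2.5 per Mb, 0.516 to 7.31). It had 5 in the Foxf1-Foxc2 window (3.85 per Mb, 1.25 to 8.98). The rest of the autosomes held 1.78 per Mb, which lies within both intervals. The strongest of these replicate 1 peaks were chr13:31404861-31405729 (score 110) and chr8:123547407-123548056 (score 61.8).

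By summed rank in the full lists, the median region of the Foxf2-Foxc1 window stood somewhat stronger than the typical autosomal region. That of the Foxf1-Foxc2 window stood somewhat weaker. Ranked by the sum of ranks among all replicated regions (0 is strongest), the median region stood at percentile 44.6 in the Foxf2-Foxc1 window and 58.2 in the Foxf1-Foxc2 window, against 49.9 in the rest of the autosomes. In each window 3 regions were in the best 10% of all replicated regions, beside 10.1% of autosomal ones. The best 25% held 7 of the 22 and 3 of the 19. The weaker 50% held 9 and 11. The Foxf2-Foxc1 value depends on the list, and the direction differs between the replicates. Over the same replicated regions, the median percentile in replicate 1 was 42.5, weaker than 37.9 in the rest of the autosomes. In replicate 2 it was 17.7, stronger than 25.3. Over all replicate 2 peaks of the Foxf2-Foxc1 window, shared or not, the median percentile in that list was 24.9 (median score 151). The rest of the autosomes stood at 49.97 (median score 87.6). Over its replicate 1 peaks it was 44.4, against 49.9. These medians were taken over regions chosen for their position and were not tested.

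How often replicate 2 ranked these regions higher depended on the scale. Its list is longer, so the same rank is a lower percentile there. In both windows replicate 2 ranked most regions higher on either scale, while over the autosomes it did so only by percentile. In the Foxf2-Foxc1 window the median rank percentile was 42.5 in replicate 1 and 17.7 in replicate 2, and in the Foxf1-Foxc2 window it was 50.1 and 28.6. In the rest of the autosomes it was 37.9 and 25.3. By percentile, replicate 2 ranked the region higher in 16 of 22 and in 14 of 19, beside 65.5% of autosomal replicated regions. By rank number it did so in 12 of 22 and in 10 of 19, beside 39.8% of autosomal replicated regions. Some regions differed widely, such as chr13:31802373-31803257, with a rank percentile of 85.7 in replicate 1 and 14.9 in replicate 2. The reverse was seen at chr13:32430500-32431396 (45.5 in replicate 1 and 92.2 in replicate 2). Both examples were chosen after their values were seen. Read depth is unknown for both libraries, and its part in these differences was not tested.

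**Figure D5:**
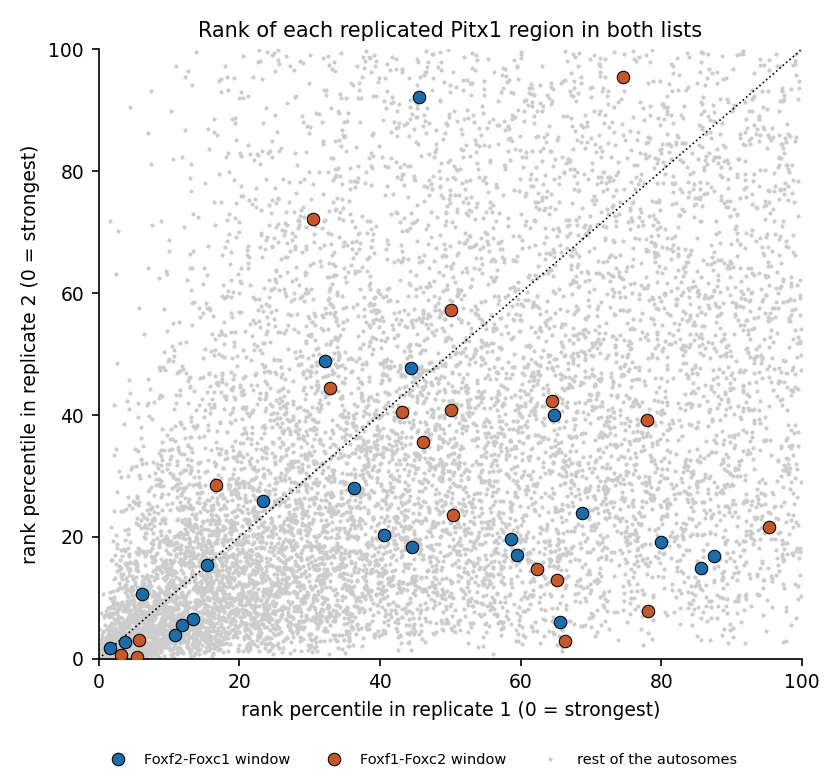
Rank percentile of each replicated region in replicate 1 (x axis) and replicate 2 (y axis), where 0 is the strongest peak of the list and the dotted line marks equal rank. Points of the Foxf2-Foxc1 window (22) and the Foxf1-Foxc2 window (19) are coloured over the grey points of the rest of the autosomes; 16 and 14 of them lie below the line.

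Replicated regions were of similar length in the windows and elsewhere, while replicate 2 peaks were wider in the Foxf2-Foxc1 window. Replicated regions had a median length of 875 bp (589 to 1480) in the Foxf2-Foxc1 window and 762 bp (486 to 2496) in the Foxf1-Foxc2 window, against 863 bp in the rest of the autosomes. The replicate 1 peak was the wider in 17 of 22 and 18 of 19 regions, against 91.8% of the rest. Over all replicate 2 peaks, the median width was 593 bp in the Foxf2-Foxc1 window and 445 bp in the Foxf1-Foxc2 window, against 456 bp in the rest of the autosomes. Only the widest Foxf1-Foxc2 region held more than 1 replicate 2 peak, beside 3.64% of autosomal replicated regions. A further list of 1 bp positions, deposited by the authors without scores, had a position in all 22 and all 19 regions. Over the autosomes 99.7% of replicated regions had one, and the widest region of the windows held 2. In both windows, no peak of 1 replicate alone held a position. The positions thus follow the overlap of the peak lists and are not a separate check of it.

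The letters TAATCC, the core that Pitx homeodomains bind, were looked for on both strands in RefSeq promoters of GRCm38 (250 bases before to 50 after a gene's start). Promoters of Foxf1 and Foxc2 were not searched. Those of Foxf2 and Foxc1 had no match, and 7.06% of 32851 promoters of that length had one. The peaks themselves were not searched, because no genome of their build was at hand.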

How the data were processed

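Per the submitters' processing notes, CASAVA 1.7 and 1.8.2, Bowtie 0.12.8, MACS 1.4.2, bedtools 2.16.2 and build mm9 were used, named without roles. The sources used here do not say how the caller was set or whether it used the input. The authors deposited 1 list of peaks for each ChIP library, called separately, with the caller's own score for each peak (lowest 50.0 and 50.01), and a list of 10625 positions. Scores were used as ranks within their list. Read counts were not used here, so depth is unknown, and intervals cover counting error only.

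From these lists, replicated regions are unions of overlapping peaks. Rates use autosome lengths up to the last peak, outside both windows. Coordinates are mm9, counted from 1. Intervals are at 95% (exact Poisson, exact conditional binomial for ratios, Wilson for shares). No p-value was computed. The 4 genes, windows and lists were chosen with earlier results of these data known. Named regions are, per window, the 5 with the lowest sum of ranks, the strongest unshared peak of each list, the tightest run, the longest stretch without a peak, and the region nearest to the gene position, with exceptions stated. The overlap step was tested on simulated data. The planned comparison with other forkhead genes needs an mm9 annotation and was not run. Alternatives were other definitions of a shared peak, score thresholds, equal list lengths, each replicate alone, merged neighbours, the positions list, membership by any overlap, and the rate of the same chromosome. Software was scipy 1.17.1, pandas 2.3.3 and numpy 2.4.6 under Python 3.11.15, with matplotlib 3.10.9 for figures.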

Additional observations from a re-analysis of the deposited data

How the results depend on the processing

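No paired analysis was possible because no peak list of the input, the only other group with these replicate numbers, was used here. The Foxf2-Foxc1 window was above the comparison rate under all 11 alternatives run (ratio 3.17 to 5.19), and so was the Foxf1-Foxc2 window (2.04 to 3.88). That rate was from the rest of the autosomes or, for the same-chromosome alternative, the rest of that chromosome. The lowest Foxf1-Foxc2 values came from the best 50% and the best 25% of each list, where the interval includes 1. These alternatives recount the deposited lists by which the windows were chosen, so they are not separate support. Shorter lists hold fewer regions: 13 and 7 in the best 50%, and 7 and 3 in the best 25%, for the Foxf2-Foxc1 and Foxf1-Foxc2 windows. With each replicate left out in turn, all peaks of the other list were counted, shared or not, which gave 25 to 38 and 24 to 49. The ratio between the windows was 2.53 in the best 25%. The share of replicate 2 peaks that were shared in the Foxf2-Foxc1 window was 36.8% in the best 25% and 77.8% with equal numbers of best peaks. In the Foxf1-Foxc2 window it was 27.6% in the best 50%, 25% in the best 25% and 58.1% with equal numbers. These settings change how many peaks the other list offers, and the autosomal share was not computed under them. How the window shares compare with the autosomes at these settings is therefore not known. The median rank percentile of replicated regions in the Foxf1-Foxc2 window was 12.0 in the best 25% (3 regions). It was 68.4 in the best 50% (7 regions), each ranked within its shorter list. With equal numbers of best peaks, the Foxf2-Foxc1 median was 51.8, against 44.6 with the full lists. The Foxf1-Foxc2 median was then 61.5, against 58.2. With a replicate left out, the median was taken over all peaks of the other list, shared or not. That gave 42.3 to 63.4 in the Foxf1-Foxc2 window. In the Foxf2-Foxc1 window it gave 24.9 with replicate 1 left out and 44.4 with replicate 2 left out. Unknown depth limits any statement on peaks of 1 library.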

Other observations

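Above the strong region at chr8:123883020-123883839 lay another replicated region, chr8:123892498-123893248, which scored 52.0 in replicate 1 and 168 in replicate 2. Beyond it, replicate 2 alone had a string of peaks that replicate 1 lacked. They were chosen after their values were seen. The first, chr8:123898811-123899169, scored 106, and the next, chr8:123901486-123902081, scored 138. The third, chr8:123906320-123906765, scored 159, and the last, chr8:123919843-123920462, scored 109. They lie 299 to 320 kb above the Foxf1-Foxc2 position. Their scores exceed the median of 67.2 for peaks of replicate 2 alone in that window.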
